A study of Saccharomyces cerevisiae with 12 samples.

Results

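The purine biosynthesis genes described here are 10 genes taken by systematic name from the 7127 identifiers of the deposited tables: *ADE1*, *ADE2*, *ADE3*, *ADE4*, *ADE5,7*, *ADE6*, *ADE8*, *ADE12*, *ADE13* and *ADE17*. All 10 passed the filter on low values, a library mean of 10 counts or more, which kept 6082 identifiers. Their mRNA was measured in BY4743, a diploid laboratory strain of *Saccharomyces cerevisiae* that carries deletions of *URA3* and *LEU2*. The strain was grown in 6 environments, each with 2 independently propagated cultures, which gave 12 libraries. Rich medium was YPD with glucose at 24°C, YPD with glucose at 32°C, or YPG at 30°C, in which 3% glycerol takes the place of glucose. Synthetic complete medium (SC) was used at 37°C, at 30°C with 40 g/l of NaCl, or at 30°C without an addition, the standard condition of the study. For the YPG libraries the medium label reads YPD and the title YPG, and the title was followed. The amount of adenine in each medium, which bears on this pathway, is not given in the sources used here, and a single strain background limits the results to BY4743. All cultures were harvested while still in late growth.

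The de novo purine pathway builds a purine ring step by step on phosphoribosyl pyrophosphate (PRPP) and ends in IMP, from which AMP and GMP are made. In yeast, adenine taken up from the medium lowers the expression of the pathway, and the transcription factors Bas1 and Pho2 together activate most of its genes when adenine is short. The pathway also draws formyl groups from folate, so its genes are often described together with those of one-carbon metabolism. Cells can alternatively recover ready-made purine bases, which is called salvage.

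The authors deposited estimated counts, scaled to a common library size, and FPKM values. The libraries summed to between 13872996 and 14144527 scaled counts, and the step between low values implies 12400000 to 15500000 read pairs per library. *URA3* and *LEU2* were listed at 0 in all 12 libraries. *PCK1*, the key enzyme of gluconeogenesis, was between 48440 and 76063 counts in the 4 libraries of YPG and of SC with NaCl, and between 57.5 and 290 counts in the other 8. The NaCl libraries therefore shared a marker of growth without glucose with the YPG libraries, although their labels name no change of carbon source. Whether this has a part in the results below was not tested. Pearson's r between replicates on log2(count + 1) was between 0.987 and 0.994 across genes, which are not independent replicates.

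The sequences before the start codons are shown first, because TGACTC is known as the core of the site bound by Bas1 in yeast and as part of the site of Gcn4, which prefers TGACTCA. In the 250 bases before the start codon in the R64 reference genome, TGACTC was found on either strand in 8 of the 10 genes, and at 2 sites in 4 of them. Among 6001 nuclear protein-coding genes it was found in 6.25%, and at 2 or more sites in 0.400%. The longer TGACTCA was found in *ADE12* of the 10 genes and in 2.17% of all promoters. These windows run with the gene, 5′ to 3′, with the motif in capitals, as TGACTC or as its reverse complement GAGTCA.
*ADE1*: cttattcacGAGTCAgtctgactc (chrI:169140-169163, plus strand)
*ADE1*: gagtcagtcTGACTCttgcgagag (chrI:169149-169172, plus strand)
*ADE2*: gctgacaaaTGACTCttgttgcat (chrXV:566373-566396, minus strand)
*ADE2*: ctaagtgatTGACTCttgctgacc (chrXV:566330-566353, minus strand)
*ADE3*: tatttgccaTGACTCctcccagtg (chrVII:905712-905735, plus strand)
*ADE5,7*: tttttcagtTGACTCgccccgtcg (chrVII:56256-56279, plus strand)
*ADE5,7*: agtgccgacTGACTCgtgtcctgg (chrVII:56289-56312, plus strand)
*ADE8*: tcgaatgagTGACTCgttgctagt (chrIV:1289026-1289049, minus strand)
*ADE8*: cgttgctagTGACTCtgacctgtt (chrIV:1289012-1289035, minus strand)
*ADE12*: cttttcattGAGTCAcagattaac (chrXIV:234182-234205, plus strand)
*ADE13*: ccgcgagcaGAGTCAaacttcaaa (chrXII:844057-844080, plus strand)
*ADE17*: gaaatgaatTGACTCctctcataa (chrXIII:509443-509466, minus strand)
The sites lay between 148 and 221 bases before the start codon, and all but the first site of *ADE1* and those of *ADE12* and *ADE13* pointed the same way as the gene. *ADE4* and *ADE6* had no match in this window, which says only that these letters are not there. A match is a description of the sequence and not a measured binding site.

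The 10 genes together made up 1.17% ± 0.0304 of all counts in YPD at 24°C, 0.750% ± 0.0685 in YPD at 32°C and 0.242% ± 0.00276 in YPG (SD, n = 2). Among the synthetic media, the share was 0.881% ± 0.0914 at 37°C, 0.136% ± 0.0210 with NaCl and 0.673% ± 0.119 at 30°C (SD, n = 2). The order of the environments did not follow the medium: the rich media held both the highest level and the next to lowest. The 6 environments differed for all 10 genes by the moderated F test of limma, where *ADE4* had the largest Benjamini-Hochberg adjusted p, 3.97e-06, but so they did for 96% of the 6082 genes tested. The range from the lowest to the highest environment mean was between 1.67 log2 units in *ADE4* and 4.49 in *ADE17*, and its median over all tested genes was 1.58. The mean was highest in YPD at 24°C for 7 genes, in YPD at 32°C for *ADE3* and *ADE8*, and in SC at 30°C for *ADE2*. It was lowest in SC with NaCl for 7 genes, and in YPG for *ADE2*, *ADE8* and *ADE17*. In these bulk libraries, a lower count can come from fewer cells that express a gene or from less of its mRNA per cell. Because the libraries were scaled to a common total, it can also come from more mRNA of other genes. These cannot be told apart.

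**Figure D1:**
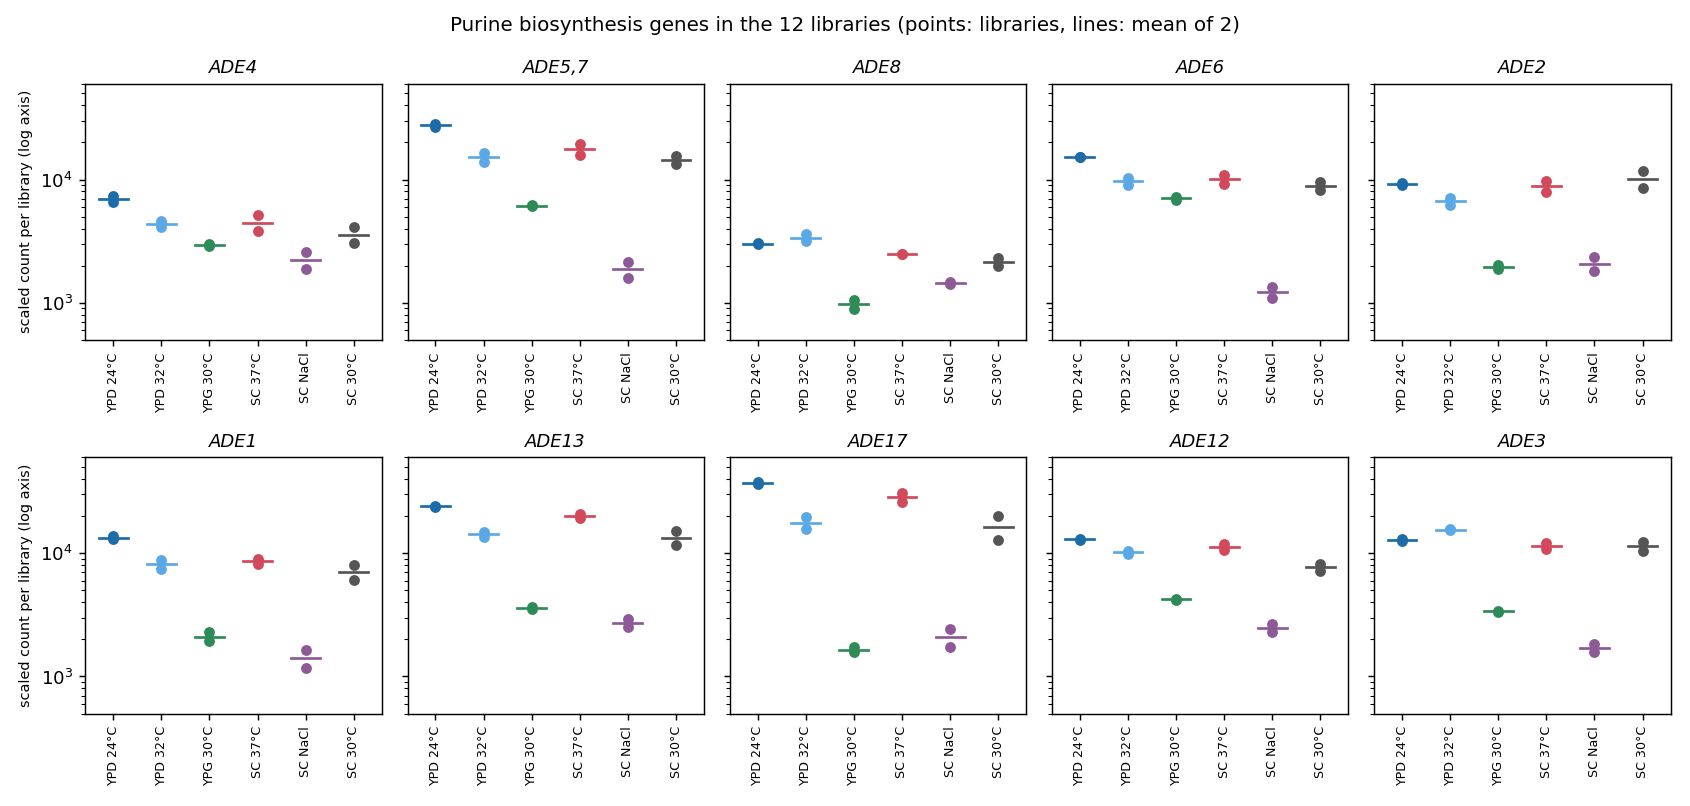
Scaled counts of the 10 purine biosynthesis genes (log axis) in each environment, with a point for each library and a line at the mean of 2. *ADE17* spans from 1573 counts in a YPG library to 37825 in a library of YPD at 24°C, and in all 10 panels the YPG and NaCl libraries lie below those of SC at 30°C.

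The first question was how rich medium compares with synthetic medium. Averaged over the 3 rich and the 3 synthetic environments, 7 of the 10 genes were higher and *ADE2* was lower in rich medium (limma on log2(count + 1), adjusted p under 0.05), while *ADE8* (0.11) and *ADE17* did not pass the test. With median-of-ratios scaling *ADE8* passed (0.20) and *ADE2* did not (-0.12), which gave 8 genes higher and none lower. With quantile normalization *ADE8* passed (0.18) and *ADE13* did not (0.07). *ADE8* also passed without replicate 2 of SC at 30°C (0.15) or replicate 1 of YPG (0.16). Among all tested genes, 32.4% were higher and 44.4% lower. The median difference of the 10 genes was 0.46 log2 units, against -0.10 for all tested genes. The libraries of the 2 media overlapped for every one of the 10 genes. Of 15 genes of purine salvage, interconversion and uptake, only 2 were without overlap. How many of all tested genes overlapped was not computed. The share of the 10 genes ran from 0.240% to 1.19% of counts in the 6 rich libraries, with a median of 0.750%, and from 0.121% to 0.946% in the 6 synthetic libraries, with a median of 0.673%.
This average turned with the choice of environments. Without SC with NaCl, none of the 10 genes was higher and 7 were lower in rich medium, against 20.2% and 43.9% of all tested genes. The median was -0.28 log2 units, against -0.15 for all tested genes. *ADE17*, whose product catalyses the last 2 steps to IMP, had a difference of 0.07 log2 units (standard error 0.11, adjusted p = 0.552 from limma) over all environments and of -1.05 without SC with NaCl (standard error 0.12, adjusted p = 3.22e-06). *ADE1* had a difference of 0.48 over all environments and of -0.34 without SC with NaCl. With YPD at both temperatures against SC at 30°C and at 37°C, leaving out both YPG and NaCl, 7 genes were higher and *ADE2* was lower, against 14.3% and 41.2% of all tested genes, with a median of 0.34 log2 units against -0.15. These 7 held *ADE8* (0.46) and not *ADE13* (0.18, adjusted p = 0.0684), unlike those of the average over all environments. *ADE2* was the sole gene below 0 in all 3 averages, and its adjusted p in the first was 0.0395. That call was lost when any 1 of 8 libraries was left out (adjusted p between 0.0532 and 0.145), the difference nearest to 0 being -0.13 without replicate 2 of SC at 30°C. The environments are therefore described singly.

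**Figure D2:**
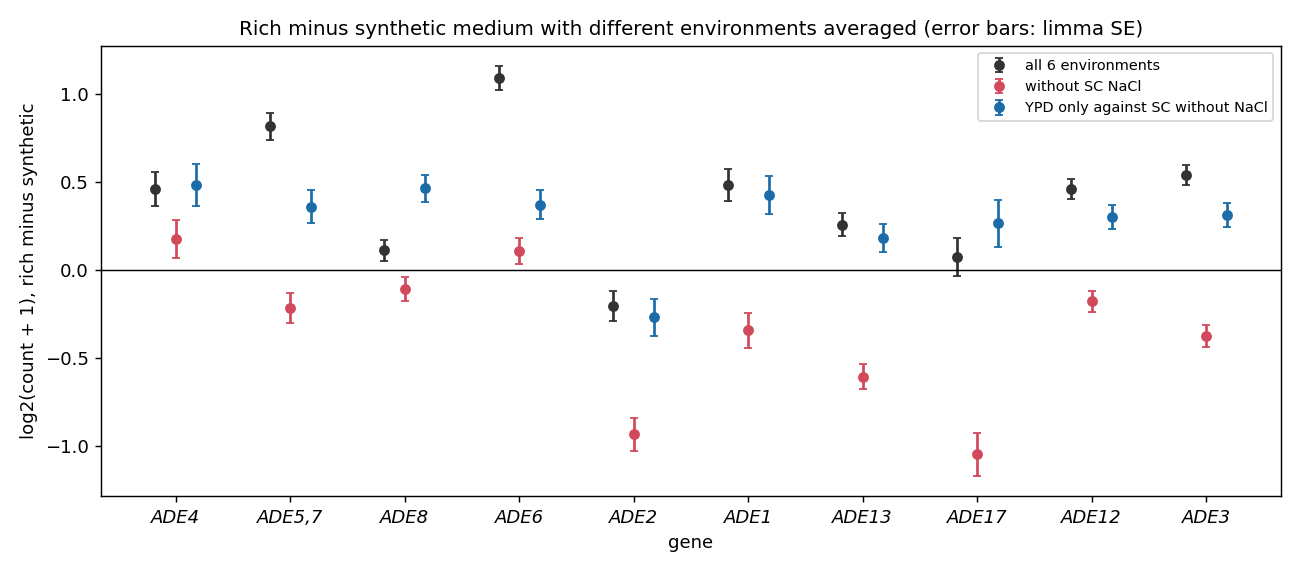
Difference of log2(count + 1) between rich and synthetic medium for each gene, with limma standard errors, for 3 choices of the environments averaged. *ADE17* is at 0.07 with all 6 environments and at -1.05 without SC with NaCl, and *ADE2* is below 0 in all 3.

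In YPD at 24°C, 8 of the 10 genes were higher than in SC at 30°C, against 10.4% of all tested genes, and none was lower, against 45.6%. The median difference was 0.83 log2 units, while that of all tested genes was -0.29. Since most genes lay below 0 in this comparison, the differences relative to the median gene are larger, and with median-of-ratios scaling 9 genes were higher, with a median of 1.11.
*ADE17* had 37825 and 36640 counts in YPD at 24°C, against 12695 and 20021 in SC at 30°C. Both libraries of YPD at 24°C lay above both of SC at 30°C, which were themselves 0.66 log2 units apart. Its log2 difference was 1.22 (standard error 0.19, adjusted p = 7.54e-05 from limma). *ADE4*, which encodes the amidotransferase of the first committed step, had 7399 and 6595 counts against 3026 and 4085, a log2 difference of 0.99 (standard error 0.17, adjusted p = 1.70e-04 from limma).
*ADE5,7* encodes a single protein for the steps that make glycinamide ribotide and close the first ring. It had 28073 and 26872 counts in YPD at 24°C, against 13264 and 15470 in SC at 30°C, a log2 difference of 0.94. *ADE1*, whose enzyme adds aspartate to the growing ring, had 13736 and 12966 counts against 6034 and 7987, also a difference of 0.94. The other genes that were higher were *ADE13* (0.87), *ADE6* (0.79), *ADE12* (0.76) and *ADE8* (0.48). *ADE13* encodes adenylosuccinate lyase and *ADE12* the first enzyme of the AMP branch. In 9 of the 10 genes, all but *ADE2*, the libraries of the 2 environments did not overlap. Nor did they in 14 of 15 genes of purine salvage, interconversion and uptake, so this is not particular to the 10 genes. The share over all tested genes was not computed.
The 2 genes that did not pass were *ADE2* and *ADE3*. *ADE2*, which encodes the carboxylase whose loss turns yeast colonies red, had 9310 and 9009 counts in YPD at 24°C, against 8561 and 11713 in SC at 30°C, so that its groups overlapped. *ADE3*, which encodes the cytosolic C1-tetrahydrofolate synthase that makes formyl groups, had 13120 and 12663 against 10437 and 12367, a difference of 0.18 (adjusted p = 0.136 from limma). *ADE3* passed with median-of-ratios scaling, at 0.47, and without replicate 2 of SC at 30°C, at 0.30 (adjusted p = 0.0430).

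In YPD at 32°C, *ADE3*, *ADE8* and *ADE12* were higher than in SC at 30°C and *ADE2* was lower, against 16.7% of all tested genes higher and 21.5% lower. The other 6 genes lay between 0.08 and 0.31 log2 units and did not pass, though *ADE4* (0.31) passed without replicate 2 of SC at 30°C, at 0.52 (adjusted p = 0.0497). The median was 0.18, against -0.01 for all tested genes.
*ADE8*, which encodes the first formyl transfer of the pathway, had 3143 and 3598 counts in YPD at 32°C, against 1999 and 2321 in SC at 30°C, a log2 difference of 0.64 (standard error 0.11, adjusted p = 2.09e-04 from limma). *ADE3* had 15315 and 15863 counts against 10437 and 12367, a difference of 0.46 (adjusted p = 0.00211). The means of *ADE8* and *ADE3* were highest here. For *ADE8* the difference between YPD at 24°C and at 32°C did not pass (-0.16, adjusted p = 0.222), and it was above 0 with median-of-ratios scaling (0.10) and with quantile normalization (0.028).
*ADE2* had 6160 and 7120 counts against 8561 and 11713, a difference of -0.60 (standard error 0.15, adjusted p = 0.00542 from limma). It no longer passed without replicate 2 of SC at 30°C, where it was -0.37 (adjusted p = 0.0948), or without replicate 1 of YPD at 32°C, where it was -0.49 (adjusted p = 0.0650). *ADE12* had a difference of 0.41, and 0.31 without replicate 1 of SC at 30°C (adjusted p = 0.0578).

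Within YPD, where the labels differ by temperature, 8 genes were higher at 24°C than at 32°C, against 6.71% of all tested genes, and *ADE3* was lower, against 42.6%. The median difference was 0.67 log2 units, against -0.26 for all tested genes.
*ADE17* had 37825 and 36640 counts at 24°C, against 15619 and 19687 at 32°C, a log2 difference of 1.09 (standard error 0.19, adjusted p = 3.58e-04 from limma). *ADE5,7* had 28073 and 26872 counts against 13951 and 16482, a difference of 0.86, and *ADE13* had 24369 and 23873 against 13648 and 14989, a difference of 0.75. For each of the 10 genes the libraries of the 2 temperatures did not overlap. The same held for all 15 genes of purine salvage, interconversion and uptake, so it is not particular to the 10 genes. The share over all tested genes was not computed.
The fall of *ADE3* by 0.27 (adjusted p = 0.0342) was lost with median-of-ratios scaling, where the difference was -0.01, and when any of the 4 libraries was left out, with differences between -0.30 and -0.25. *ADE2*, at 0.47 (adjusted p = 0.0187), was lost without replicate 1 or without replicate 2 of YPD at 24°C, at 0.44 and 0.49, and without replicate 1 of YPD at 32°C, at 0.36. The calls of *ADE3* and *ADE2* were also lost with no filter on low values and with no mean-variance trend. *ADE12*, at 0.35, also was lost without replicate 1 of YPD at 32°C, at 0.31 (adjusted p = 0.0766).

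In YPG, 9 of the 10 genes were lower than in SC at 30°C, against 38.7% of all tested genes, and none was higher, against 28.1%. Both media stood at 30°C and differ in the rich components and the carbon source together. The median difference was -1.47 log2 units, against -0.11 for all tested genes. For all 10 genes the libraries did not overlap, and likewise for all 15 genes of purine salvage, interconversion and uptake. This is therefore not particular to the 10 genes, and the share over all tested genes was not computed.
*ADE17* had 1573 and 1736 counts in YPG, against 12695 and 20021 in SC at 30°C, a log2 difference of -3.27 (standard error 0.19, adjusted p = 1.75e-09 from limma). It had the highest value per length of the 10 genes in YPD at 24°C, at 1432 FPKM, and the lowest in YPG, at 63.6 FPKM. *ADE2* had 1875 and 2007 counts in YPG against 8561 and 11713, a difference of -2.37 (standard error 0.15, adjusted p = 4.35e-09).
*ADE13* fell by 1.88 log2 units, to 3661 and 3526 counts in YPG, against 11589 and 15115 in SC at 30°C. *ADE3* (-1.75) and *ADE1* (-1.73) followed, then *ADE5,7* (-1.22), *ADE8* (-1.16) and *ADE12* (-0.86).
The smallest differences were those of *ADE6* and *ADE4*. *ADE6*, which encodes formylglycinamidine ribotide synthase, had 7185 and 6854 counts in YPG against 8146 and 9504, a difference of -0.33 (standard error 0.12, adjusted p = 0.0239 from limma). This call was lost with median-of-ratios scaling (-0.20), and without replicate 2 of SC at 30°C (-0.22), replicate 1 of YPG (-0.36) or replicate 2 of YPG (-0.29). *ADE4* had 2876 and 2988 counts against 3026 and 4085, a difference of -0.26 (adjusted p = 0.181), and passed without replicate 1 of SC at 30°C, at -0.48 (adjusted p = 0.0388).

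A comparison of YPG with YPD at 32°C, chosen after the data were seen, sets glycerol against glucose within rich medium at temperatures that are close but not the same. All 10 genes were lower in YPG, against 36.5% of all tested genes, and none was higher, against 26.9%, with a median of -1.78 log2 units against -0.10. *ADE17* had 1573 and 1736 counts in YPG, against 15619 and 19687 in YPD at 32°C (-3.41), and *ADE3* had 3361 and 3397 against 15315 and 15863 (-2.21). *ADE6* (-0.46, adjusted p = 0.00331 from limma) and *ADE4* (-0.57, adjusted p = 0.00829) differed least. *ADE4* was lost without replicate 2 of YPD at 32°C, at -0.49, and without replicate 1 of YPG, at -0.54.

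In SC with NaCl, all 10 genes were lower than in SC at 30°C, against 47.2% of all tested genes, and none was higher, against 33.8%. For all 10 the libraries did not overlap, and likewise for 14 of 15 genes of purine salvage, interconversion and uptake. So this is not particular to the 10 genes, and the share over all tested genes was not computed. The median difference was -2.31 log2 units, against -0.22 for all tested genes, and -2.11 with median-of-ratios scaling. Each of the 10 calls held when any single library was left out.
*ADE17* had 1743 and 2417 counts in SC with NaCl, against 12695 and 20021 in SC at 30°C, a log2 difference of -2.96 (standard error 0.19, adjusted p = 1.52e-09 from limma). *ADE5,7* had 1598 and 2131 counts against 13264 and 15470, also a difference of -2.96 (standard error 0.14, adjusted p = 3.54e-11). *ADE6* had 1084 and 1354 counts against 8146 and 9504, a difference of -2.86 (standard error 0.12, adjusted p = 1.06e-11).
The log2 differences of the next genes were -2.74 (*ADE3*), -2.33 (*ADE1*), -2.29 (*ADE13*), -2.28 (*ADE2*) and -1.64 (*ADE12*). *ADE4*, with 1862 and 2585 counts in SC with NaCl against 3026 and 4085, differed by -0.68 (adjusted p = 0.00173 from limma), and by -0.44 without replicate 1 of SC with NaCl. *ADE8*, with 1482 and 1429 counts against 1999 and 2321, differed by -0.57 (adjusted p = 1.66e-04). The genes of the first and the first formyl-transfer step thus moved least in salt.
The order per length changed with it. In SC with NaCl *ADE8* had the highest mean of the 10 genes, 154 FPKM, and *ADE6* the lowest, 20.5 FPKM, while in SC at 30°C the highest was *ADE13*, at 630 FPKM, and the lowest *ADE6*, at 148 FPKM.

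SC with NaCl and YPG were also compared with each other, a choice made after the data were seen. In SC with NaCl 7 genes were lower and *ADE8* was higher than in YPG, against 41.9% and 39.3% of all tested genes. *ADE6* had 1084 and 1354 counts in SC with NaCl, against 7185 and 6854 in YPG, a log2 difference of -2.53 (standard error 0.12, limma adjusted p = 2.91e-11), and *ADE5,7* had 1598 and 2131 against 6164 and 6106 (-1.73). *ADE2* (0.09, adjusted p = 0.604) and *ADE17* (0.31, adjusted p = 0.138) did not pass, with standard errors of 0.15 and 0.19, which does not show that they were alike. *ADE17* passed without replicate 1 of SC with NaCl (0.55, adjusted p = 0.0307) and with quantile normalization (0.46, adjusted p = 0.0306). The differences of *ADE1* (-0.60) and *ADE4* (-0.42) were lost without replicate 1 of SC with NaCl, at -0.35 and -0.18, and that of *ADE4* also without replicate 1 or replicate 2 of YPG, at -0.45 and -0.39, and with median-of-ratios scaling, at -0.35. Without replicate 2 of SC with NaCl the difference of *ADE4* was -0.65. With quantile normalization *ADE13* (-0.41) and *ADE4* did not pass, at -0.16 and -0.17.

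In SC at 37°C, *ADE12*, *ADE13* and *ADE17* were higher than in SC at 30°C, against 11.9% of all tested genes, and none of the 10 was lower, against 11.6%. The median difference was 0.31 log2 units, against 0.02 for all tested genes. *ADE13* had 21015 and 19456 counts at 37°C, against 11589 and 15115 at 30°C, a difference of 0.61 (standard error 0.11, adjusted p = 0.00146 from limma). *ADE12* had 11986 and 10686 counts against 7137 and 8208, a difference of 0.56 (adjusted p = 6.90e-04). *ADE12* and *ADE13* encode the successive enzymes that turn IMP into AMP.
*ADE17* had 30856 and 26012 counts at 37°C against 12695 and 20021 at 30°C, a difference of 0.83 (adjusted p = 0.00566). It no longer passed without replicate 1 of SC at 30°C, at 0.50 (adjusted p = 0.0794), or without replicate 1 of SC at 37°C, at 0.71 (adjusted p = 0.0564). The other 7 genes lay between -0.19 (*ADE2*) and 0.33 (*ADE4*).

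**Figure D3:**
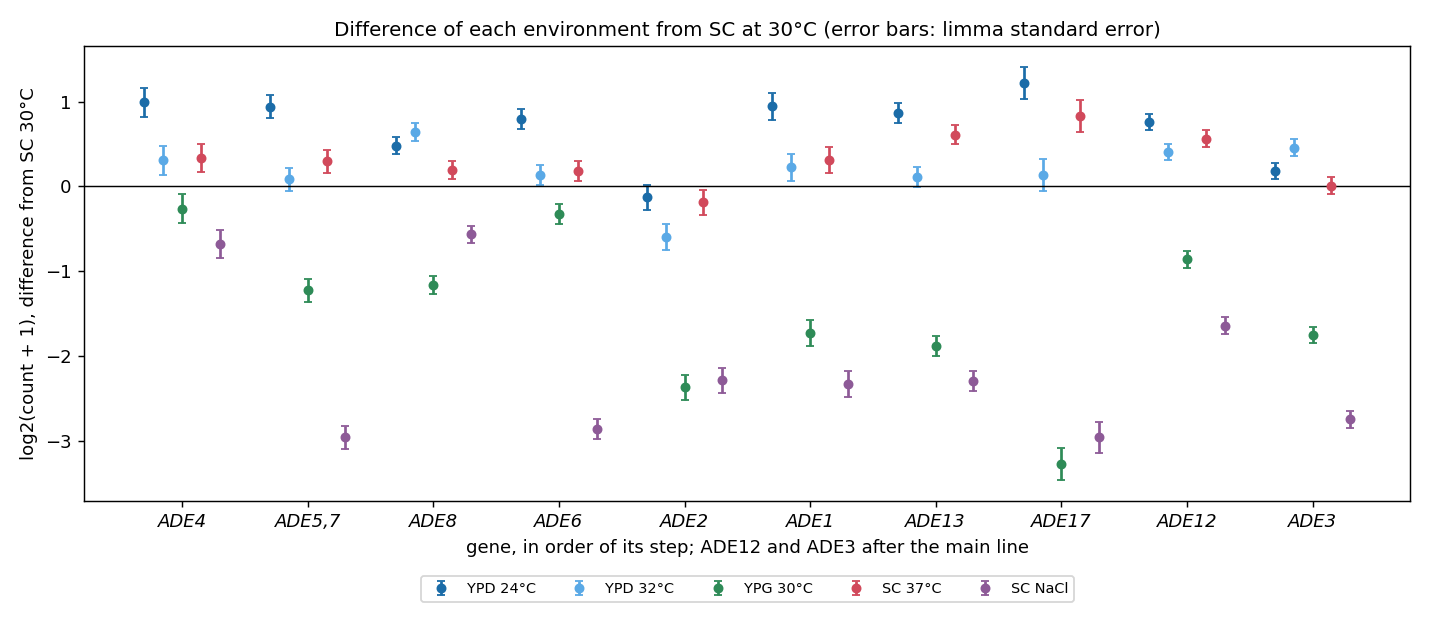
Difference of log2(count + 1) of the 5 other environments from SC at 30°C for each gene, with limma standard errors. SC with NaCl and YPG lie below 0 for all 10 genes, with *ADE17* at -2.96 and -3.27, while *ADE4* and *ADE6* are close to 0 in YPG.

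In 4 of the 6 environments at least 9 of the 10 genes differed in the same direction between replicates. In SC at 30°C all 10 were higher in replicate 2 than in replicate 1, by 0.20 to 0.66 log2 units, and in YPD at 32°C by 0.05 to 0.33. In SC with NaCl 9 of 10 were higher in replicate 2, with a median of 0.35, and in SC at 37°C all 10 were lower in replicate 2, with a median of -0.21. In YPG 7 of 10 were higher in replicate 2, with a median of 0.04, and in YPD at 24°C 2 of 10, with a median of -0.05. Over all tested genes the median difference between replicates was 0.06 in SC at 30°C, -0.05 in YPD at 32°C, 0.18 in SC with NaCl, 0.07 in SC at 37°C, 0.04 in YPG and 0.01 in YPD at 24°C. Replicate 2 held the higher value for 67.7% of all tested genes in SC at 30°C and for 34.1% in YPD at 32°C. This share was 76.5% with NaCl, 68.5% at 37°C, 60.6% in YPG and 54.9% in YPD at 24°C. The 9 of 10 with NaCl and 7 of 10 in YPG were thus not far from it. All 10 genes moved the same way for SC at 30°C. They also did so for SC at 37°C and YPD at 32°C, against the direction of most genes. The 10 genes are therefore not independent measures of an environment. The 5 comparisons with SC at 30°C share its 2 libraries, which differed in the level of the whole pathway.
Across the 6 environment means, Pearson's r of a gene with the mean of the other 9 was between 0.835 (*ADE8*) and 0.998 (*ADE1*). The pair most alike was *ADE1* and *ADE13* (r = 0.993) and the pair least alike *ADE6* and *ADE8* (r = 0.540). These are descriptions over 6 points from shared libraries.
Outside the 10 genes, the 10 genes with a profile most like their mean included *SHM2* (r = 0.990), the cytosolic serine hydroxymethyltransferase that feeds one-carbon units. They also included the glycolytic genes *FBA1* (r = 0.993) and *CDC19* (r = 0.991), the chitin synthase gene *CHS2* (r = 0.998), the chaperone gene *SSA2* (r = 0.994), and *GPD2* (r = 0.989). *BTT1*, *STE24*, *OST1* and *SEC7* completed the list, with r between 0.989 and 0.994. *SSA2*, of the HSP70 family, shares sequence with its close paralog *SSA1*, so its counts are uncertain.

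*ADE16* encodes the isozyme of Ade17 and did not follow it. Both proteins catalyse the same last steps to IMP. *ADE16* had 6325 and 6596 counts in YPD at 24°C, 8158 and 8108 at 32°C, and 5797 and 6137 in YPG. In SC it had 8968 and 8963 counts at 37°C, 8598 and 7923 with NaCl, and 10721 and 11068 at 30°C without an addition. Its level was highest in SC at 30°C, and it was lower in each of the 5 other environments, with log2 differences between -0.87 (YPG, adjusted p = 1.50e-07 from limma) and -0.28 (SC at 37°C, adjusted p = 0.0161). With median-of-ratios scaling the difference in SC with NaCl, -0.20, did not pass.
The ratio of *ADE17* to *ADE16* counts was 5.77 ± 0.300 in YPD at 24°C, 2.17 ± 0.363 in YPD at 32°C and 0.277 ± 0.00820 in YPG (SD, n = 2). In synthetic medium it was 3.17 ± 0.381 at 37°C, 0.254 ± 0.0724 with NaCl and 1.496 ± 0.442 in SC at 30°C. *ADE16* thus had more counts than *ADE17* in the 4 libraries of YPG and of SC with NaCl and fewer in the other 8, and the 2 coding lengths, 1776 bp for *ADE16* and 1779 bp for *ADE17*, are nearly equal. *ADE16* had no TGACTC in the 250 bases before its start codon. The 2 genes are paralogs, and whether reads were split between them was not tested.

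**Figure D4:**
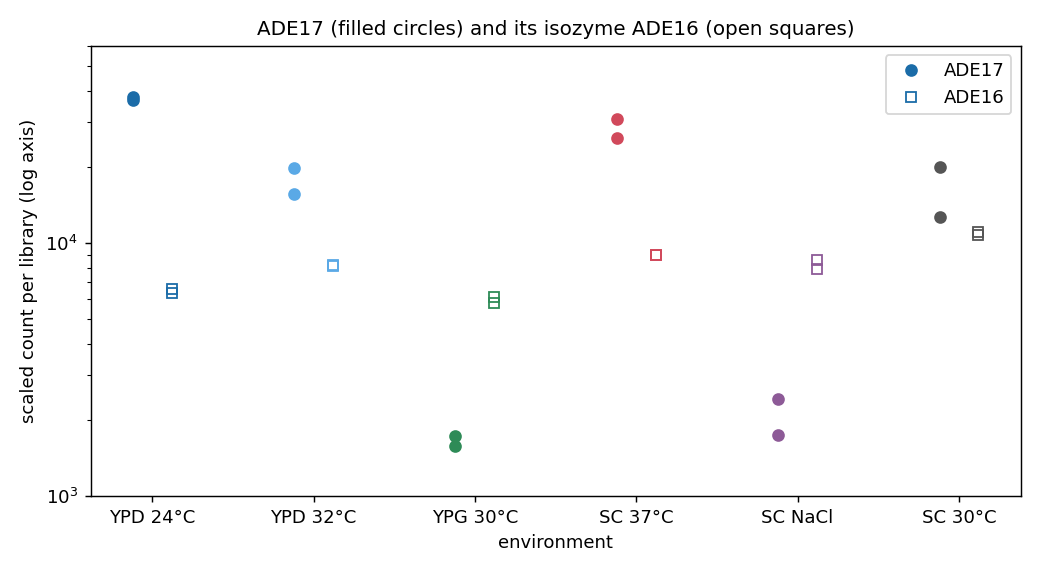
Scaled counts (log axis) of *ADE17* and its isozyme *ADE16* in each library. *ADE17* lies above *ADE16* in YPD at 24°C, with a mean ratio of 5.77, and below it in YPG and in SC with NaCl, with mean ratios of 0.277 and 0.254.

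The genes around the pathway were described from lists of fixed members. Relative to SC at 30°C, 28.1% of all tested genes were higher and 38.7% lower in YPG, 33.8% and 47.2% in SC with NaCl, and 10.4% and 45.6% in YPD at 24°C. Of 9 genes for one-carbon units, all were lower in SC with NaCl than in SC at 30°C, with a median of -1.17 log2 units, and 8 with median-of-ratios scaling. In YPG 4 were lower and 3 higher than in SC at 30°C, close to the shares of all tested genes, and in YPD at 24°C 5 were higher and 1 was lower (6 and none with median-of-ratios scaling).
*SHM2* had 43476 counts on average in YPD at 24°C against 21641 in SC at 30°C, a log2 difference of 1.03, and differed by -1.81 in YPG and -3.19 in SC with NaCl. *GCV1* and *GCV2*, of the glycine cleavage complex, had differences of 1.34 and 1.70 in YPD at 24°C. *MTD1*, the cytosolic methylenetetrahydrofolate dehydrogenase, was lower in YPG (-1.94) and in SC with NaCl (-1.51).
*MIS1*, the mitochondrial counterpart of *ADE3*, averaged 7933 counts in YPG and 3792 in SC at 30°C, a difference of 1.06, where that of *ADE3* was -1.75. In SC with NaCl *MIS1* was lower (-3.14).
TGACTC was found before 7 of the 9 one-carbon genes, *SHM1* and *MIS1* being without it. Of those with it, *LPD1* was higher in YPG (0.26) and lower in YPD at 24°C (-0.26, and 0.02 with median-of-ratios scaling). *DFR1* passed in neither, and *GCV3* was lower in YPG (-0.91) and higher in YPD at 24°C (0.72). Over all tested genes, the median difference in YPG was -0.16 with TGACTC and -0.11 without it. In SC with NaCl it was -0.23 and -0.22. The windows of *SHM2*, *GCV1*, *GCV2* and *MTD1* are shown for comparison, chosen after their values were seen.
*SHM2*: ataaaggttTGACTCtatctcttg (chrXII:259614-259637, minus strand)
*GCV1*: caggagcccTGACTCgtgttgcct (chrIV:485494-485517, minus strand)
*GCV2*: ctctcagagGAGTCAtcgaagtca (chrXIII:637252-637275, plus strand)
*MTD1*: atgatatatTGACTCagtagaaaa (chrXI:590212-590235, plus strand)

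The lists of PRPP synthesis and of the GMP branch had 8 genes that were higher in YPG and *IMD2*, which was lower like most of the 10 genes. All 5 genes of PRPP synthetase were higher in YPG than in SC at 30°C, with a median of 0.91 log2 units, and all 5 were lower in SC with NaCl (4 with median-of-ratios scaling), with a median of -1.18. *PRS3* had 8127 counts on average in YPG and 2840 in SC at 30°C, which differed by 1.52.
*GUA1*, which encodes GMP synthase, was higher in YPG, by 1.48 log2 units (21886 counts against 7819), and lower in SC with NaCl (-3.09). *IMD2*, which encodes IMP dehydrogenase, was lower in YPG (221 counts on average against 7805 in SC at 30°C, -5.15) and in SC with NaCl (40.5 counts, -7.55). *IMD3* and *IMD4* were higher in YPG (0.41 and 0.26) and lower in SC with NaCl (-3.90 and -4.47). These 3 genes are close paralogs, and a split of reads between them cannot be told apart from their own levels here. None of these 9 genes had TGACTC in the window.

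Of 15 genes for salvage, interconversion and uptake of purines, 4 were higher and 10 lower in YPG than in SC at 30°C, and as many in SC with NaCl. The 4 of 15 that were higher are near the share of all tested genes in both. The medians were -0.47 and -0.97 log2 units. In YPD at 24°C 4 were higher and 6 lower, which became 8 and 4 with median-of-ratios scaling.
*AAH1*, the adenine deaminase that turns adenine into hypoxanthine, had 12876 counts on average in YPG against 1792 in SC at 30°C, which is 2.84 on the log2 scale. It was also higher in YPD at 32°C (1.59) and lower in SC with NaCl (-1.93). Its level in YPG thus lay on the other side of SC at 30°C from those of the 10 genes.
*ISN1*, which encodes an IMP nucleotidase, and *GUD1*, the guanine deaminase gene, were lower in YPG, at -1.995 and -1.59. *ADO1*, the adenosine kinase gene, *ADK1*, the adenylate kinase gene, and *GUK1*, the guanylate kinase gene, were lower in SC with NaCl, at -2.68, -2.36 and -2.09. *XPT1*, the xanthine phosphoribosyltransferase gene, and *GUD1* were lower in YPD at 24°C, at -1.72 and -1.28.
*BAS1*, the activator, was higher in YPD at 32°C (0.99) and in YPG (0.81) and lower in SC with NaCl (-1.13), and its difference in YPD at 24°C, -0.06, did not pass the test. *PHO2* was higher in SC with NaCl (0.61). *GCN4*, the activator of amino acid synthesis, was higher in YPD at 24°C (0.53), in YPD at 32°C (0.42) and in YPG (1.15). It was lower in SC with NaCl (-0.54). The mRNA of *BAS1* was thus higher in YPG, where 9 of the 10 genes were lower. The activity of these regulators was not measured, and whether they have a part in the levels of the 10 genes was not tested.
Of 4 other genes known to be under Bas1, 3 were higher in YPD at 24°C than in SC at 30°C. All 4 were higher in YPD at 32°C. Over all tested genes 10.4% and 16.7% were higher. In YPG 1 was higher and 2 were lower, and in SC with NaCl all 4 were lower. *HIS4* was higher in YPD at 24°C (0.86), in YPD at 32°C (1.46) and in SC at 37°C (0.60). It was lower in YPG and in SC with NaCl, at -1.82 in both. *HIS1* was higher in YPD at 24°C (0.73) and at 32°C (1.34), and lower in YPG (-0.84) and in SC with NaCl (-2.47). *HIS7* was higher in YPD at 32°C (0.49) and lower in SC at 37°C (-0.35) and in SC with NaCl (-2.72). *GLN1*, glutamine synthetase, was higher in YPG (1.498), opposite to *HIS4*, and in YPD at 24°C (1.09), in YPD at 32°C (1.30) and in SC at 37°C (0.93), and lower in SC with NaCl (-0.62).

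**Figure D5:**
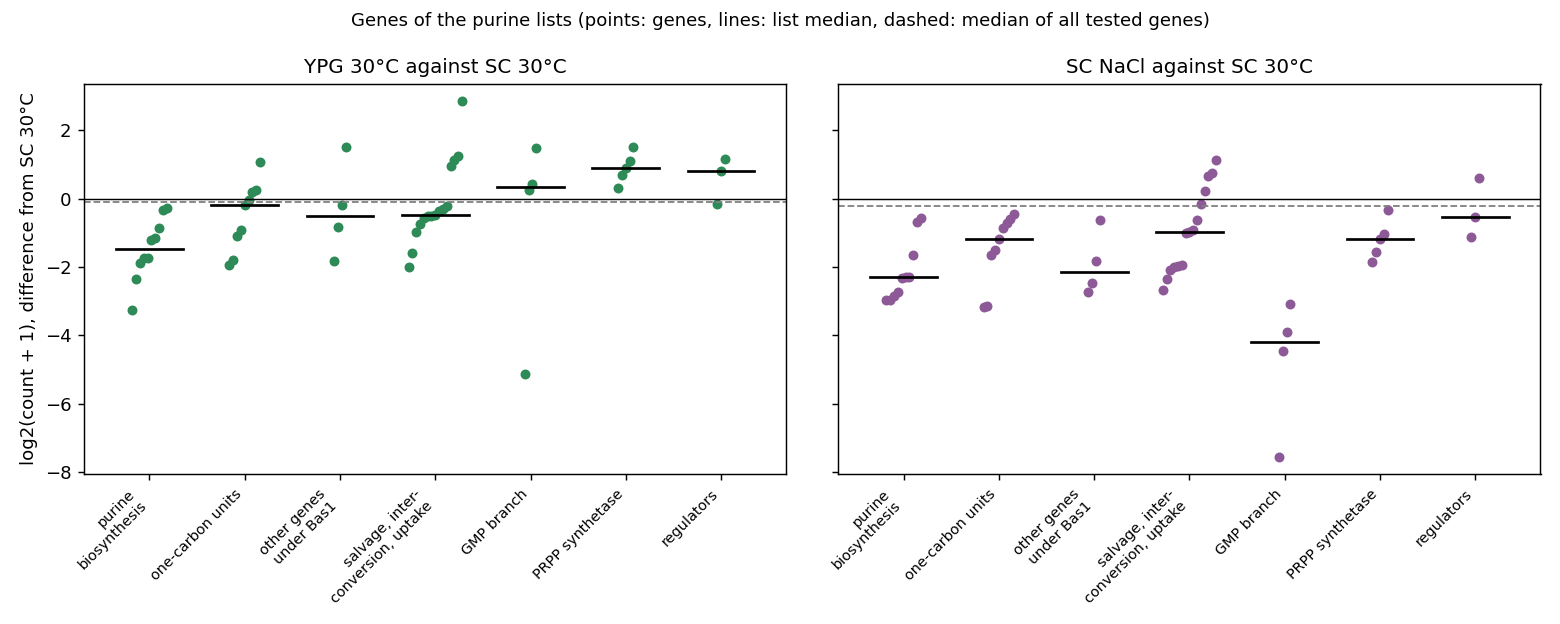
Difference of log2(count + 1) from SC at 30°C in YPG (left) and in SC with NaCl (right) for the genes of each list, with points for genes, lines at list medians and a dashed line at the median of all tested genes. The 10 purine biosynthesis genes have medians of -1.47 and -2.31, and the 5 genes of PRPP synthetase have 0.91 and -1.18.

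The 10 genes lie on 7 chromosomes of the R64 genome, each as a single exon. *ADE17* (YMR120C) lies on chromosome XIII from 507502 to 509280 and *ADE4* (YMR300C) on the same chromosome from 865559 to 867091, both on the minus strand. Chromosome VII holds *ADE5,7* (YGL234W, 56482 to 58890), *ADE6* (YGR061C, 611889 to 615965) and *ADE3* (YGR204W, 905934 to 908774). *ADE1* (YAR015W) lies on chromosome I from 169375 to 170295, *ADE8* (YDR408C) on IV from 1288215 to 1288859 and *ADE13* (YLR359W) on XII from 844282 to 845730. *ADE12* (YNL220W) lies on XIV from 234413 to 235714 and *ADE2* (YOR128C) on XV from 564476 to 566191. *ADE16* (YLR028C) lies on XII from 199540 to 201315. The genes that moved most alike, *ADE1* and *ADE13*, lie on different chromosomes.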

How the data were processed

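Total RNA of BY4743 from 6 environments was sequenced by the authors, 2 libraries each. After a check with fastQC, the authors aligned the reads by Hisat2 to an Ensembl genome of yeast (R64 per the labels), used samtools 1.9 for sorting, and ran cuffquant and then cuffnorm. The authors deposited estimated counts, which cuffnorm scaled to a common library size and which are treated here as a signal, and FPKM values. The low counts (0.5 to 20) were whole multiples of a common step, within 0.01 of it, in 74.2% to 82% of cases, so no count test was run. The depth limits low values, where about 1 count stands for 1 read pair, and does not limit the 10 genes.

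Genes whose mean reached 10 counts were tested with limma 3.58.1 (R 4.3.3) on log2(count + 1), all 12 libraries in 1 fit with a mean-variance trend, and p-values were adjusted by the Benjamini-Hochberg method over all tested genes within a comparison (threshold 0.05). Differences are given on that log2 scale, and are too small for genes of low count. The test was tried on simulated data, with no outcome given here, so this is no measure of its error rate. Sequences come from the RefSeq copy of R64, whose 250 bases before and 50 after each start codon were read and the 250 searched; figures were drawn with matplotlib 3.10.9 in Python 3.11.15. Alternatives were pseudocounts of 0.5 and 8, no filter, a mean of at least 50, median-of-ratios scaling, quantile normalization (chosen after seeing the data), FPKM, no trend, only the libraries compared, the replicate number as a block and each library left out. The members and lists were chosen with earlier results of these data known. All 10 members were named in each comparison; from the lists, up to 3 genes past the threshold with the largest difference were to be named for each comparison, and the remaining list genes named with values in the report were chosen after their values were seen. The genes of like profile are the 10 with the highest r.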

Additional observations from a re-analysis of the deposited data

How the results depend on the processing

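Of 910 values of single genes under the alternatives, those that leave out a library apart, 866 kept their direction and side of the threshold, 22 lost and 5 gained a call, and 17 changed sign. With no filter and with no mean-variance trend, *ADE2* for rich against synthetic medium and *ADE6* in YPG lost their calls. So did *ADE2* and *ADE3* in YPD at 24°C against 32°C and *ADE4* in SC with NaCl against YPG. With FPKM, *ADE2* for rich against synthetic medium and *ADE4* in SC with NaCl against YPG lost theirs. Without SC with NaCl in the average, 7 genes were called between rich and synthetic medium, all lower, and the differences that changed sign were -0.34 for *ADE1*, -0.38 for *ADE3*, -0.22 for *ADE5,7*, -0.11 for *ADE8*, -0.18 for *ADE12*, -0.61 for *ADE13* and -1.05 for *ADE17*; this average has fewer environments by construction. With median-of-ratios scaling, *ADE2* was 0.16 in YPD at 24°C relative to SC at 30°C, *ADE3* was -0.0089 in SC at 37°C relative to 30°C and *ADE8* was 0.10 in YPD at 24°C against 32°C. With quantile normalization, chosen after seeing the data, *ADE17* was -0.15 between rich and synthetic medium, *ADE3* was -0.10 in SC at 37°C and *ADE8* was 0.028 in YPD at 24°C against 32°C. In YPD at 32°C relative to SC at 30°C it gave -0.15 for *ADE5,7*, -0.013 for *ADE6*, -0.071 for *ADE13* and -0.090 for *ADE17*. For the last 2 alternatives the cause was not tested. Apart from those without SC with NaCl, none of the values that changed sign had passed the threshold before the change.

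Of 440 values with 1 library left out, where a lone library was assumed to vary like the other groups, 392 kept their direction and side, 30 lost and 6 gained a call, and 12 changed sign. Those that changed sign ranged from -0.037 to 0.18 for *ADE17* between rich and synthetic medium, from -0.10 to 0.27 for *ADE2* in SC with NaCl against YPG, and from -0.35 to 0.10 for *ADE2* in YPD at 24°C. In YPD at 32°C relative to SC at 30°C they ranged from -0.038 to 0.20 for *ADE5,7*, from -0.080 to 0.30 for *ADE13* and from -0.19 to 0.47 for *ADE17*. In SC at 37°C they ranged from -0.42 to 0.037 for *ADE2* and from -0.11 to 0.13 for *ADE3*. A fit with a replicate block called 8 of the 10 genes for rich against synthetic medium, and its count was equal to that of the fit without the block in each of the 9 comparisons. Deviations of libraries with the same number correlated between -0.094 and 0.213 across genes, so the numbers are not shown to pair the cultures. With 2 libraries for each environment, small differences are the ones most open to change.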
